A study of Mus musculus with 8 samples.

Results

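The genes described here are 10 enzymes of glycolysis, among them pairs of isoforms that carry out the same step: Hk1, Hk2, Pfkp, Aldoa, Aldoc, Gapdh, Pgk1, Eno1, Ldha and Ldhb. They were taken by symbol from a table of 17644 genes, in which all 10 have a row, and all 10 passed the filter on low values. Expression was measured in mouse brain by CAGE, a method that captures RNA by its cap, reads its 5' end and counts these reads, called tags, for each gene. All 8 samples came from 11-week-old male mice of the strain C57BL/6NCrSlc in which motor cortex had been removed by aspiration through a craniotomy, leaving a small cavity, and the tissue within 1.0 mm of the cavity was collected. The brain was removed immediately after the lesion in 4 samples (no delay) and 1 week after it in the other 4. Both groups therefore carry the lesion and no uninjured tissue is among them, so the comparison is of a fresh cavity border with one that is 1 week old. Each library is named here by its group and the short tag in its column name, and 4 values in a row follow the alphabetical order of these tags. The labels do not say that each sample came from its own animal, so p-values measure the spread between samples. The series title concerns progranulin and grafted human stem cell-derived neurons, and the comparison describes the host tissue.

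Glycolysis turns glucose into pyruvate in the cytosol and yields ATP without oxygen. Hexokinases trap glucose as glucose 6-phosphate, phosphofructokinase commits it to the pathway, aldolase splits the hexose, GAPDH and phosphoglycerate kinase carry the oxidation and the first return of ATP, enolase makes phosphoenolpyruvate, and lactate dehydrogenase interconverts pyruvate and lactate. In brain the isoforms divide between cell types: Hk1 is the main hexokinase of neurons, Aldoc (zebrin II) is typical of astrocytes, and Eno2 is the neuronal enolase. Ldha favours the making of lactate and Ldhb its use, and several of these genes, such as Hk2, Pgk1, Aldoa, Eno1, Gapdh and Ldha, are known targets of the hypoxia-inducible factor HIF-1.

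Since CAGE reads the 5' ends of transcripts, the sequences in front of annotated starts of the genes are shown for Hk2, Gapdh and Pgk1, which were higher at 1 week, and for 2 starts of Ldha, which was lower. They are the 250 bases before each start, from RefSeq on GRCm38.p6 (the deposited values rest on mm9, so the table does not say which start its tags came from), written 5′ to 3′ on the strand of the gene and free of annotated exons. Capitals mark ACGTG and GCGTG, the cores that HIF-1 can bind, on either strand, so that CACGT and also CACGC stand for matches on the reverse strand.
Hk2 (chr6:82774455-82774704, minus strand): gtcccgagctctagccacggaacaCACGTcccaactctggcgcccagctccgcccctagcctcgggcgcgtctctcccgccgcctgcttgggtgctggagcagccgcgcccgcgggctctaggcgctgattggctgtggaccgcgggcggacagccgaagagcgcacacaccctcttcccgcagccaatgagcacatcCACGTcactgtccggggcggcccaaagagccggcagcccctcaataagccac
Gapdh (chr6:125165774-125166023, minus strand): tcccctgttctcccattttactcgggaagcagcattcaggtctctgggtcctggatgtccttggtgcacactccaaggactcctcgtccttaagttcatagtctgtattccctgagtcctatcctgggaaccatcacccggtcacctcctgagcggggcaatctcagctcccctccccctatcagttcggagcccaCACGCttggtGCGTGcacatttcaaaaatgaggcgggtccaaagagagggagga
Pgk1 (chrX:106186850-106187099, plus strand): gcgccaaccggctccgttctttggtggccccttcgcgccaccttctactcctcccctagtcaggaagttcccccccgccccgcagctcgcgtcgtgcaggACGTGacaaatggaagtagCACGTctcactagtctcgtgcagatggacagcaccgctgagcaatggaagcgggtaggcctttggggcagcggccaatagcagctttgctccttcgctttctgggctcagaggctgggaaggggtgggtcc
Ldha, upstream start (chr7:46845554-46845803, plus strand): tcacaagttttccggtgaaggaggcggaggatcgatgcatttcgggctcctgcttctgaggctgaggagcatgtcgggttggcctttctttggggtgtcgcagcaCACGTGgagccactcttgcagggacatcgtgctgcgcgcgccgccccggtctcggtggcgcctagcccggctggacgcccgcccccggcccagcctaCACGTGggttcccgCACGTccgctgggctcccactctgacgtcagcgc
Ldha, downstream start (chr7:46846832-46847081, plus strand): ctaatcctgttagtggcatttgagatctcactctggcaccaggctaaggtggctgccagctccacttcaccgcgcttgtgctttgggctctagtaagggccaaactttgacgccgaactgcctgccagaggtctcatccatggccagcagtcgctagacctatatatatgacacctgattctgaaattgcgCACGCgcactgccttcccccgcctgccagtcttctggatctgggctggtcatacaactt

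The window of Hk2 held ACGTG at 226 and 52 bases before the start, counted to the first base of the match, and that of Pgk1 held it at 150 and 131 bases. The upstream window of Ldha held 5 matches, all to ACGTG, of which 4 overlap in pairs within CACGTG, a palindrome present in 2 places, whereas its downstream window held 1 match to GCGTG. The bases just after the upstream Ldha start were not found near the beginning of a transcript of a second annotation, GENCODE. Those after the other starts shown were. In GENCODE the window of Gapdh and both windows of Ldha lie inside the span of their own gene, outside its exons. Those of Hk2 and Pgk1 overlap no annotated gene. Gapdh had GCGTG at 54 and 44 bases. Over the 17 windows of the 10 genes, some of which overlap each other, 15 held either core (88.2%), against 38.6% of the 32851 RefSeq windows of this length and 53.2% of the 14061 windows of genes in the table. Annotated exon bases lay within windows of Hk1 (186), Pfkp (6), Aldoa (193 and 76), Eno1 (245 and 250) and Aldoc (given below). The shares of the 17 are thus not of sequence free of exons. ACGTG alone was in 5 of the 17 (29.4%; 16.6% of all windows and 20.6% of those of genes in the table), and GCGTG alone in 10 (58.8%; 28.2% and 42.3%). The windows with ACGTG belong to Hk2 and Pgk1, which were higher, to Aldoa, which was not called, and to Ldha, which was lower. Aldoc, the other gene that was higher, is not shown because its 2 windows run over 105 and 136 exon bases, and they held GCGTG but not ACGTG. A match is a description of the letters and not a binding site.

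Depth and tissue were as follows. Reads counted in genes numbered 8278855 to 13998941 per library, and 3 reads, the limit that a count of 0 allows, corresponded to 0.214 to 0.362 CPM, the unit of the deposited values, in which each library has the same total. Of the 14718 genes tested, 23.4% passed limma's test (adjusted p under 0.05) as higher and 13.4% as lower at 1 week, 36.8% together, with a median log2 fold change of 0.06. The share of calls that were higher was 63.6% on the deposited scale, 52.4% after TMM, 50.9% after median-of-ratios and 43.4% after quantile scaling. The last put the median of all genes at -0.04. Markers of brain tissue were present in all libraries and their makeup moved between the groups. Of 10 neuronal markers 2 were lower and 8 not called, and their summed level lay at 7110.3 to 7959 CPM without delay and 6473 to 6858 CPM at 1 week. Of 9 astrocyte markers 8 were higher (sum 1659.6 to 1906 CPM, then 3644 to 4285 CPM), as were all 10 markers of microglia and macrophages (sum 232 to 255 CPM, then 1064 to 1648 CPM), 6 of 7 of oligodendrocytes (sum 1346 to 3010.0 CPM, then 2152 to 3713 CPM), 5 of 6 of endothelium (sum 122 to 137 CPM, then 195 to 231 CPM) and 5 of 6 of fibroblasts (sum 25.2 to 37.5 CPM, then 49.0 to 177 CPM). Red cell genes ranged from 659 to 1562 CPM and 348 to 5361 CPM (5 tested and not called), and 4 neutrophil genes summed to 0.610 to 12.8 CPM and 1.1 to 4.83 CPM (1 tested and not called). None of the markers with a row was at 0 in all libraries. In bulk tissue fewer cells of a type and less RNA per cell cannot be told apart, and the part of the changed makeup in the results below was not tested.

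Of the 10 genes, 4 were higher at 1 week, 1 was lower and 5 were not called, where 23.4% of all genes tested were called higher and 13.4% lower. Hk2 rose by the largest factor, with smaller increases in Aldoc, Gapdh and Pgk1, while Ldha fell and Hk1, Pfkp, Aldoa, Eno1 and Ldhb were not called. The median log2 fold change of the 10 was 0.22, beside 0.06 for all genes. The groups did not overlap in 3 of the 10, against 34.7% of all genes tested: Hk2 and Aldoc were higher in all 1-week libraries (22.7% of all genes) and Ldha was lower in all of them (12%). The summed level of the 10 was 3927 CPM ± 306 (SD, n = 4) without delay, or 0.393% of tags, and 4302 CPM ± 179.8 (SD, n = 4) at 1 week, or 0.430%, with ranges that overlap. Hk2, Aldoc and Gapdh were called under each of 18 alternative settings, whereas the calls of Pgk1 and Ldha were not.

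**Figure D1:**
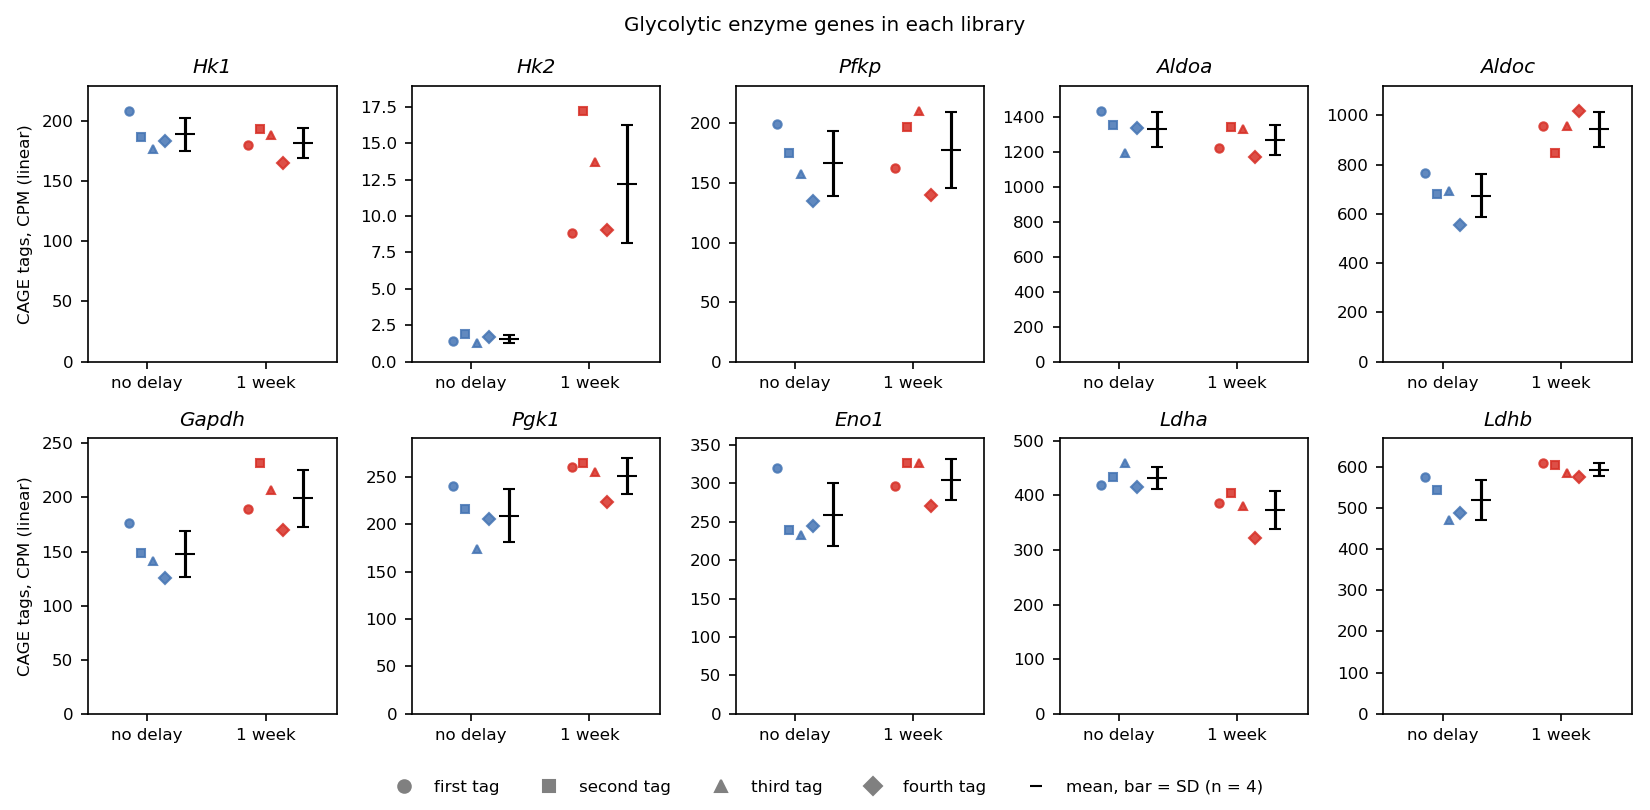
CPM of each of the 10 genes (linear axes from 0, 1 panel per gene) in the 4 no-delay libraries (blue) and the 4 1-week libraries (red), with marker shapes for the library tags in alphabetical order and black bars for the mean and SD. Hk2 and Aldoc lie wholly higher and Ldha wholly lower at 1 week, and the groups overlap in the other 7 genes.

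The hexokinases, which hold the entry to the pathway, moved in different directions. Hk2, the inducible hexokinase bound to mitochondria, stood at 1.43, 1.92, 1.29 and 1.67 CPM in the no-delay libraries and 8.82, 17.2, 13.7 and 9.04 CPM in the 1-week libraries. All 1-week values lay far above all no-delay values, which rest on 64 reads in total against 609 at 1 week. The mean went from 1.58 CPM ± 0.277 (SD, n = 4) to 12.2 CPM ± 4.04 (SD, n = 4), a ratio of 7.73, and the log2 fold change was 2.31 (SE 0.19, 95% interval 1.89 to 2.74, limma adjusted p = 2.3e-06). On the log2(CPM + 1) scale the change of a gene this low is understated: it was 2.72 with a pseudocount of 0.25, 1.36 with 5, and 2.89 by edgeR on recovered reads. An annotated gene, Gm17034, overlaps Hk2 on the opposite strand and has no row in the table, and whether the counting used strand is not stated. The spread at 1 week was wide, with the libraries tagged atcacg and cgatgt above those tagged acagtg and tgacca. In the 1-week libraries the microglial and macrophage markers summed to 1159, 1648, 1154 and 1064 CPM. The astrocyte markers summed to 3644, 4265, 4285 and 3987 CPM in the same libraries. The part of either cell type in the spread of Hk2 was not tested.

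Hk1, the constitutive hexokinase of neurons, was at 208, 186, 177 and 183 CPM in the no-delay libraries and 179, 193, 188 and 165 CPM in the 1-week libraries. The groups overlap and their means, 188 CPM ± 13.5 (SD, n = 4) and 181 CPM ± 12.3 (SD, n = 4), differ by less than the spread within them (log2 fold change -0.06, SE 0.07, 95% interval -0.21 to 0.10, limma adjusted p = 0.565). Of the other glucose kinases, Hk3, the hexokinase of myeloid cells, went from 0.848 to 3.81 CPM (log2 fold change 1.38, SE 0.16, limma adjusted p = 3.7e-05). It was under 1 CPM in 3 of 4 no-delay libraries and passed the filter through its 1-week values. Hkdc1, a hexokinase-like gene, fell from 11.3 to 7.04 CPM (log2 fold change -0.61, SE 0.15, limma adjusted p = 0.00753), and Adpgk, a kinase that spends ADP, rose from 19.8 to 24.8 CPM (log2 fold change 0.31, SE 0.08, limma adjusted p = 0.00955), a call lost only with quantile normalization (adjusted p = 0.0791; 0.00833 to 0.0791 over its alternatives).

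A transcript's length does not enter a CAGE count, so levels of isoform genes were added and divided. Sums and shares still depend on how tags that match several places were counted, which the sources used here do not give. Hk1, Hk2, Hk3 and Hkdc1 summed to 202 ± 12.8 CPM without delay and 204 ± 15.8 CPM at 1 week (SD, n = 4). Within this total the share of Hk2 went from 0.783 ± 0.153% to 5.90 ± 1.55% (SD, n = 4), with ranges of 0.647 to 0.969% and 4.39 to 7.81%. The ratio of Hk2 to Hk1 was 0.00688, 0.0103, 0.00730 and 0.00913 in the no-delay libraries and 0.0492, 0.0894, 0.0731 and 0.0549 in the 1-week libraries. All 1-week ratios were above all no-delay ratios, with a difference in log2 ratio of 2.97 (SE 0.24, n = 4 per group; exact 2-sided permutation p = 0.0286, 0.0476 after Benjamini-Hochberg adjustment over the 5 pairs). That raw p is the smallest that 4 against 4 allows, and any pair whose groups do not overlap receives it. The adjusted value depends on how many of the 5 pairs reach it. How often ratios of other gene pairs separate the groups was not examined. Hk1 was the main hexokinase tag in all 8 libraries at both times.

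At phosphofructokinase, the committing step, none of the 3 subunit genes was called by limma. Pfkp, the platelet-type subunit, stood at 199, 175, 158 and 135 CPM in the no-delay libraries and 163, 197, 210.4 and 140.1 CPM in the 1-week libraries. The library tagged tgacca was the lowest in both groups, and the groups overlap. The log2 fold change of Pfkp was 0.09 (SE 0.13, 95% interval -0.21 to 0.38, limma adjusted p = 0.644). Pfkm, the muscle-type subunit, went from 109 to 126 CPM (log2 fold change 0.21, SE 0.10, limma adjusted p = 0.109) and Pfkl, the liver-type subunit, from 133 to 132 CPM (log2 fold change -0.0045, SE 0.07, limma adjusted p = 0.968). Pfkm alone among these was called once the no-delay library tagged acagtg was left out (limma adjusted p = 0.0149; 0.0149 to 0.275 over its alternatives). The ratio of Pfkp to Pfkm was 1.51, 1.64, 1.53 and 1.41 in the no-delay libraries and 1.33, 1.52, 1.49 and 1.24 in the 1-week libraries, groups that overlap (difference in log2 ratio -0.13, SE 0.08, n = 4 per group, exact 2-sided permutation p = 0.171, 0.214 after Benjamini-Hochberg adjustment over the 5 pairs). The 3 genes summed to 408 ± 49.4 CPM and 436 ± 42.8 CPM (SD, n = 4), of which Pfkp made 40.7 ± 2.27% and 40.5 ± 3.68%. Of the genes that tune this step, Pfkfb3, which makes the sugar phosphate that activates the enzyme, rose from 13.9 to 26.5 CPM (log2 fold change 0.88, SE 0.15, limma adjusted p = 7.8e-04), above all no-delay libraries in all 4 1-week libraries.

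The ratio of the aldolase isoform genes differed between the groups without overlap. Aldoa, the ubiquitous form and the most abundant of the 10 genes, stood at 1433, 1354, 1195 and 1335 CPM in the no-delay libraries and 1221, 1341, 1332 and 1170.4 CPM in the 1-week libraries. The groups overlap, and its log2 fold change was -0.07 (SE 0.08, 95% interval -0.25 to 0.11, limma adjusted p = 0.543). Aldoc, the form typical of astrocytes, stood at 765, 680.2, 694 and 555 CPM in the no-delay libraries and 955, 846, 958 and 1017 CPM in the 1-week libraries. Every 1-week value exceeded every no-delay value, and the lowest no-delay value was that of the library tagged tgacca. The mean of Aldoc rose from 674 CPM ± 87.4 (SD, n = 4) to 944 CPM ± 71.1 (SD, n = 4), a ratio of 1.40 (log2 fold change 0.49, SE 0.10, 95% interval 0.28 to 0.71, limma adjusted p = 0.00188), beside the rise of 8 of 9 astrocyte markers, whose summed level went up by more. Both genes together made 2003 ± 147 CPM and 2210.0 ± 53.2 CPM (SD, n = 4), and the share of Aldoc in them went from 33.6 ± 3.12% to 42.7 ± 3.30%. The ratio of Aldoa to Aldoc was 1.87, 1.99, 1.72 and 2.40 in the no-delay libraries and 1.28, 1.59, 1.39 and 1.15 in the 1-week libraries. All 1-week ratios were below all no-delay ratios, with a difference in log2 ratio of -0.56 (SE 0.14, n = 4 per group; exact 2-sided permutation p = 0.0286, 0.0476 after Benjamini-Hochberg adjustment over the 5 pairs). Tags of Aldoa and of Fam57b, which lies over it on the opposite strand (39.9 and 34.1 CPM), could be mixed if strand was not used in the counting, and the sources used here do not say. The same holds for Hk1 and Hk1os (no row in the table) and for Pfkp and Pitrm1 (18.8 and 24.6 CPM).

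The genes of the next steps, glyceraldehyde phosphate dehydrogenase and phosphoglycerate kinase, were both higher. Gapdh, often used as a reference gene, stood at 177, 149, 142 and 125 CPM in the no-delay libraries and 189, 232, 207 and 170.0 CPM in the 1-week libraries. The groups overlap only in that the no-delay library tagged acagtg (177 CPM) lay above the 1-week library tagged tgacca (170.0 CPM). Its mean rose from 148 CPM ± 21.4 (SD, n = 4) to 199 CPM ± 26.3 (SD, n = 4), a ratio of 1.35 (log2 fold change 0.43, SE 0.11, 95% interval 0.19 to 0.67, limma adjusted p = 0.00910). Iffo1, which overlaps Gapdh on the opposite strand, had 63.2 and 73.0 CPM. Pgk1, phosphoglycerate kinase, stood at 241, 216, 174 and 205 CPM in the no-delay libraries and 260.4, 264, 255 and 223 CPM in the 1-week libraries. Here too the no-delay library tagged acagtg exceeded the 1-week library tagged tgacca. The mean of Pgk1 was 209 CPM ± 27.7 (SD, n = 4) and then 251 CPM ± 18.7 (SD, n = 4) (log2 fold change 0.27, SE 0.09, 95% interval 0.06 to 0.47, limma adjusted p = 0.0406). Pgk1 did not pass when the no-delay library tagged atcacg (adjusted p = 0.0590), cgatgt (0.110) or tgacca (0.0746) was left out. The same held for the 1-week libraries tagged acagtg (0.0926), atcacg (0.105) and cgatgt (0.0894), each value an adjusted p. It also did not pass with TMM (0.109) or median-of-ratios scaling (0.121), by edgeR (0.115) or DESeq2 (0.119) on recovered reads, or without the filter (0.0517), 11 of 18 alternatives in all (adjusted p 0.0130 to 0.121 over the 18). Tpi1, the isomerase that feeds this phase, stood at 536 and 571 CPM and was not called (limma adjusted p = 0.582).

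Enolase tags were shared by Eno1, the widely expressed form, and Eno2, that of neurons. Eno1 stood at 320.2, 239, 233 and 244 CPM in the no-delay libraries and 297, 326, 326 and 271 CPM in the 1-week libraries. The no-delay library tagged acagtg lay far above the other 3 of its group, among the 1-week values. The mean went from 259 CPM ± 40.9 (SD, n = 4) to 305 CPM ± 26.6 (SD, n = 4), with a log2 fold change of 0.24 (SE 0.10, 95% interval 0.02 to 0.46, limma adjusted p = 0.0806), so that Eno1 was not called. It was called once that library was left out (log2 fold change 0.35, adjusted p = 0.00516), without the 1-week library tagged tgacca (0.0395) and after quantile normalization (0.0294), within a range of adjusted p of 0.00516 to 0.206 over all alternatives. Eno2 averaged 352 and 374 CPM (limma adjusted p = 0.524). The ratio of Eno1 to Eno2 was 0.809, 0.652, 0.636 and 0.871 in the no-delay libraries and 0.795, 0.808, 0.829 and 0.834 in the 1-week libraries. The 1-week ratios lay close together, inside the range of the no-delay ratios (difference in log2 ratio 0.15, SE 0.11, n = 4 per group, exact 2-sided permutation p = 0.371, 0.371 after Benjamini-Hochberg adjustment over the 5 pairs). Enolase tags summed to 614 ± 78.7 CPM and 681 ± 61.3 CPM (SD, n = 4), with 42.2 ± 3.78% and 44.8 ± 0.550% from Eno1. Eno4, at 2.69 and 2.00 CPM, added little.

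The lactate dehydrogenase subunit genes also had ratios that did not overlap between the groups. Ldha, the subunit that favours lactate, stood at 419, 433, 459 and 415 CPM in the no-delay libraries and 387, 404, 380.0 and 323 CPM in the 1-week libraries. Every 1-week value was below every no-delay value, with the lowest in the library tagged tgacca. The mean fell from 432 CPM ± 19.8 (SD, n = 4) to 373 CPM ± 35.2 (SD, n = 4), a ratio of 0.865 (log2 fold change -0.21, SE 0.08, 95% interval -0.38 to -0.05, limma adjusted p = 0.0455). Ldhb, the subunit that favours pyruvate, stood at 576, 544, 469 and 488 CPM in the no-delay libraries and 608, 605, 584 and 574 CPM in the 1-week libraries. The 1-week values were tightly grouped, and only the no-delay library tagged acagtg reached into their range. Its log2 fold change was 0.20 (SE 0.07, 95% interval 0.03 to 0.36, limma adjusted p = 0.0577), so that Ldhb was not called. It was called in 3 separate alternatives. These were the no-delay library tagged acagtg left out (adjusted p = 0.0210), quantile normalization (0.0401) and the library tag as a block (0.0411; 0.0210 to 0.219 over all alternatives).

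The ratio of Ldha to Ldhb was 0.728, 0.796, 0.978 and 0.849 in the no-delay libraries and 0.636, 0.668, 0.650 and 0.562 in the 1-week libraries. All 1-week ratios were below all no-delay ratios, and the difference in log2 ratio was -0.41 (SE 0.10, n = 4 per group; exact 2-sided permutation p = 0.0286, 0.0476 after Benjamini-Hochberg adjustment over the 5 pairs). Both genes summed to 951 ± 42.5 CPM without delay and 966 ± 49.8 CPM at 1 week (SD, n = 4), and the share of Ldha in the sum went from 45.5 ± 3.07% to 38.6 ± 1.79% (SD, n = 4). The call of Ldha itself sat close to the threshold and was lost in 9 of 18 alternatives. It did not pass without the no-delay libraries tagged acagtg (adjusted p = 0.0587), atcacg (0.0915), cgatgt (0.112) or tgacca (0.0524), without the 1-week library tagged acagtg (0.0576), cgatgt (0.0778) or tgacca (0.104). Quantile normalization gave 0.130, and the adjusted p over all alternatives ran from 0.00218 to 0.130. A ratio within a library does not depend on how the libraries are scaled.

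**Figure D2:**
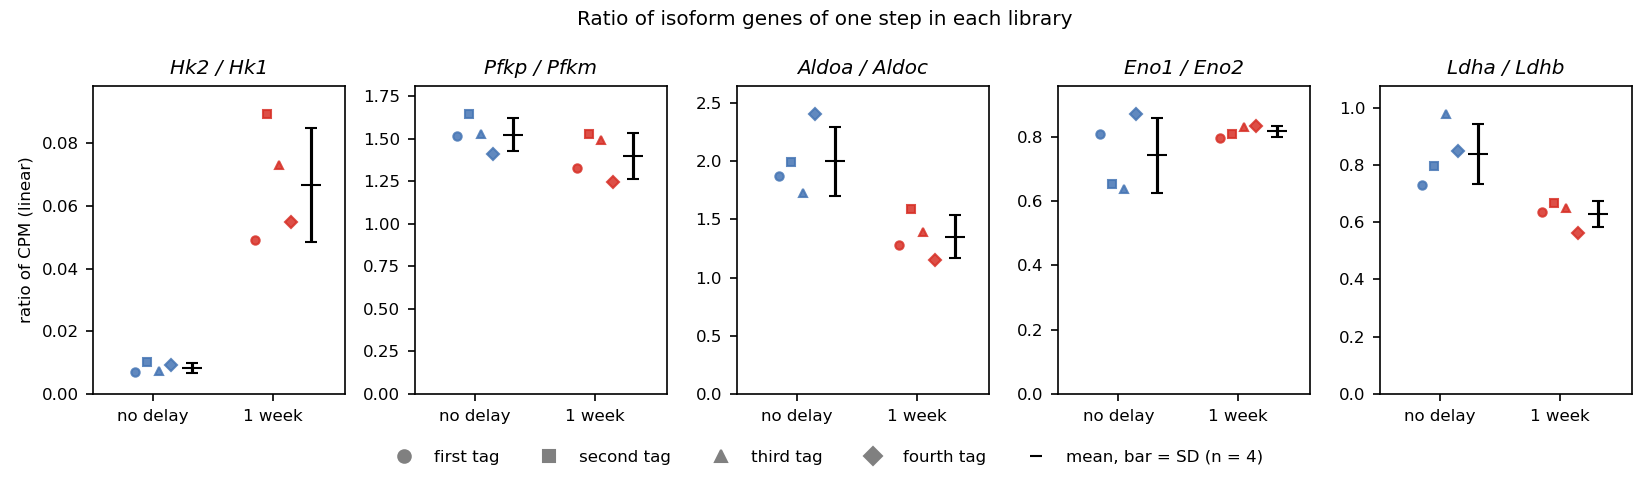
Ratio of the CPM of 2 isoform genes in each library (linear axes from 0), for no-delay (blue) and 1-week (red) libraries, with marker shapes for the library tags in alphabetical order and black bars for the mean and SD. The ratio of Hk2 to Hk1 is higher, and those of Aldoa to Aldoc and of Ldha to Ldhb lower, in all 4 1-week libraries than in all 4 no-delay libraries, while Pfkp to Pfkm and Eno1 to Eno2 overlap.

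The order of levels changed little. Without delay it ran from Aldoa through Aldoc, Ldhb, Ldha, Eno1, Pgk1, Hk1, Pfkp and Gapdh to Hk2, and at 1 week Gapdh stood above Hk1 and Pfkp. In the no-delay group the ranges of neighbours overlap between Aldoc and Ldhb, and from Eno1 through Pgk1, Hk1 and Pfkp to Gapdh, and at 1 week between Ldha and Eno1 and from Pgk1 through Gapdh and Hk1 to Pfkp. Retrocopies and pseudogenes of Gapdh, Aldoa, Pgk1, Eno1 and Ldha are annotated in the mouse genome, and how tags that match several places were counted is not given in the sources used here, so the levels of these 5 genes are less certain than the others. Some libraries were high or low in many of the genes: the no-delay library tagged acagtg was the highest of its group in 8 of the 10 genes, and the 1-week library tagged tgacca the lowest of its group in 8 of 10. The summed neuronal and oligodendrocyte markers were likewise the highest of their group in the former (7959 and 3009.98 CPM) and the lowest in the latter (6473 and 2152 CPM), and their part in these levels was not tested. Without the no-delay library tagged acagtg the summed level of the 10 differed between the groups by 513 CPM, against 376 CPM with all libraries, and it differed by 199 CPM with TMM and 176 CPM with median-of-ratios scaling.

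Of 13 other glycolytic enzyme genes tested, 3 were higher, 1 lower and 9 not called (median log2 fold change 0.11), against 23.4% of all genes higher and 13.4% lower and a median of 0.06. These shares are close to or below those of all genes, and Hk3 is among the 3 that were higher. Next to the Hk3, Adpgk and Hkdc1 calls, Bpgm, which makes bisphosphoglycerate, went from 40.7 to 55.4 CPM (log2 fold change 0.41, SE 0.15, limma adjusted p = 0.0424), with groups that overlap and a call lost in 10 of 18 alternatives (adjusted p 0.00665 to 0.115 over all). Leaving out the no-delay library tagged atcacg gave an adjusted p of 0.0890, cgatgt 0.109 and tgacca 0.0752, and the 1-week library tagged acagtg 0.115 and tgacca 0.0885. Gpi1, the isomerase after hexokinase, was at 483 and 558 CPM (limma adjusted p = 0.0913), Pgam1, the mutase, at 282 and 303 CPM (limma adjusted p = 0.339) and Pgam2 at 4.10 and 3.60 CPM (limma adjusted p = 0.446). Pkm, the pyruvate kinase gene, listed under its older symbol, was at 673 and 791 CPM (limma adjusted p = 0.103). The gene total does not separate its splice forms. Without the no-delay library tagged acagtg, 6 of the 13 were called higher, Gpi1, Pfkm and Pkm among them (adjusted p = 0.0175, 0.0149 and 0.0117; 0.0175 to 0.256, 0.0149 to 0.275 and 0.0117 to 0.253 over all alternatives).

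**Figure D3:**
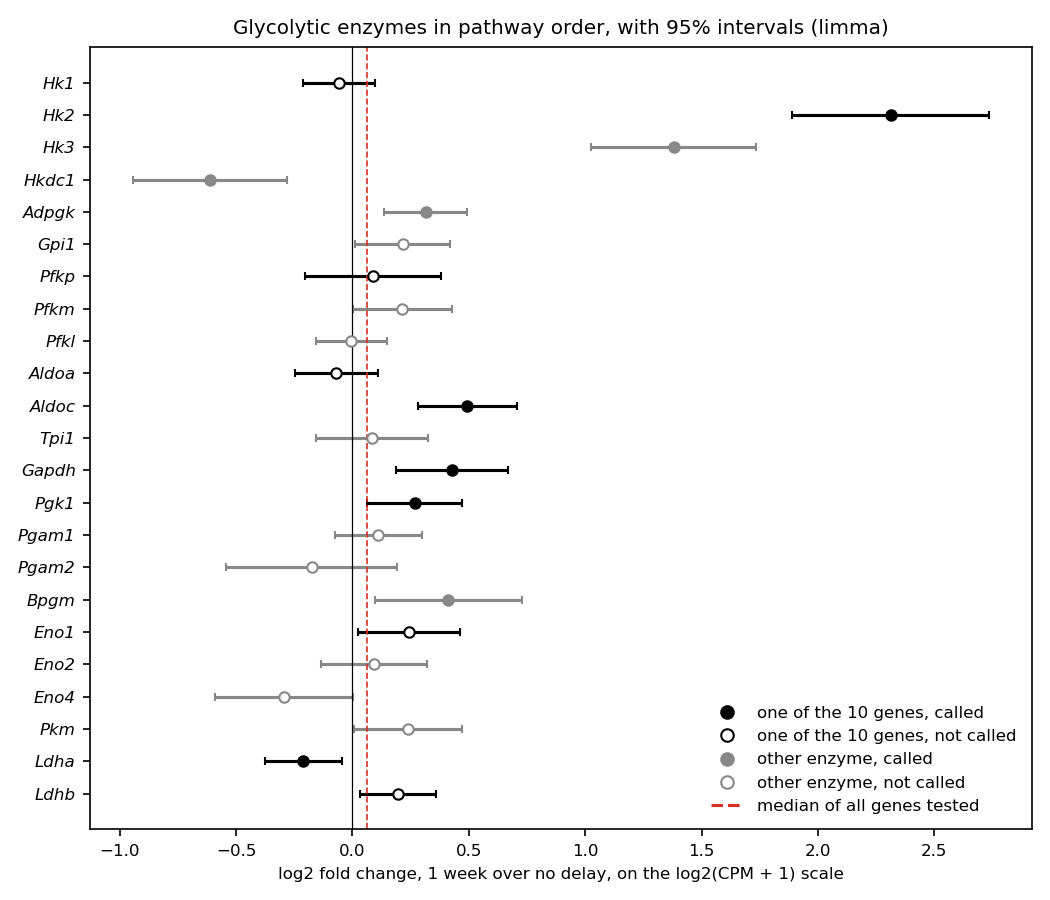
Log2 fold change at 1 week over no delay (log2(CPM + 1) scale) with its 95% interval for the 10 genes (black) and 13 other glycolytic enzyme genes (grey), in the order of the pathway; filled points were called by limma. Hk2 at 2.31 and Hk3 at 1.38 lie furthest to the right of the median of all genes (dashed), and Hkdc1 at -0.61 furthest to the left.

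Genes that supply, regulate or branch from glycolysis were read from lists in the same fit. Of 8 glucose and lactate transport genes tested, 5 were higher and 3 not called (median log2 fold change 0.40), against 23.4% of all genes higher and 13.4% lower. Slc16a1, the lactate carrier MCT1, rose from 27.7 to 63.0 CPM (log2 fold change 1.15, SE 0.09, limma adjusted p = 1.5e-06), Slc16a3, the carrier MCT4, from 1.32 to 2.76 CPM and Slc2a4, the insulin-regulated glucose carrier, from 0.477 to 1.31 CPM. All 4 no-delay values of Slc2a4 were under 1 CPM, so it passed the filter through its 1-week values alone, and the calls of Slc16a3 and Slc2a4 were lost with quantile normalization (adjusted p = 0.164 and 0.471; 0.00203 to 0.164 and 0.00173 to 0.471 over all alternatives). Of 6 genes regulating the phosphofructokinase step, 3 were higher, 1 lower and 2 not called (median 0.16), beside 23.4% and 13.4% of all genes. Beside Pfkfb3, the catalytic subunit genes of AMP-activated kinase went opposite ways, Prkaa1 from 20.5 to 28.1 CPM (log2 fold change 0.44, SE 0.10, limma adjusted p = 0.00368) and Prkaa2 from 66.2 to 50.1 CPM (log2 fold change -0.40, SE 0.10, limma adjusted p = 0.00893).

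At the exit towards mitochondria, of 13 genes of pyruvate entry and the pyruvate dehydrogenase complex tested, 3 were higher, 1 lower and 9 not called (median 0.07). The list thus stood near all genes (23.4% higher, 13.4% lower, median 0.06). Pdk4, a kinase that switches the complex off, rose from 4.72 to 11.5 CPM (log2 fold change 1.30, SE 0.32, limma adjusted p = 0.00680), with no-delay values spread from 1.49 to 9.12 CPM. Pdp1, a phosphatase that switches it on, fell from 238 to 189 CPM (log2 fold change -0.33, SE 0.09, limma adjusted p = 0.0150). Pdha1, a subunit of the complex, went from 134 to 172 CPM (limma adjusted p = 0.0245), a call lost in 7 of 18 alternatives (adjusted p 0.00592 to 0.0735 over all). Among them were leaving out the no-delay library tagged cgatgt (adjusted p = 0.0570) or tgacca (0.0517), leaving out the 1-week one tagged atcacg (0.0735) or cgatgt (0.0612), and TMM scaling (0.0528).

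Of 8 pentose phosphate pathway genes tested, which make NADPH and ribose from glucose 6-phosphate, 4 were higher, 1 lower and 3 not called (median 0.22), where all genes gave 23.4% and 13.4%. G6pdx, its first enzyme, rose from 22.1 to 34.5 CPM (log2 fold change 0.62, SE 0.10, limma adjusted p = 6.1e-04) and Taldo1, transaldolase, from 88.6 to 137 CPM (log2 fold change 0.62, SE 0.10, limma adjusted p = 3.8e-04). Rpia, a ribose phosphate isomerase, fell from 21.8 to 13.1 CPM (log2 fold change -0.67, SE 0.14, limma adjusted p = 0.00309). Of 3 gluconeogenesis genes tested, 1 was higher and 2 not called (all genes 23.4% higher). Pcx, pyruvate carboxylase, went from 59.8 to 69.7 CPM (limma adjusted p = 0.0328), and stood close to the threshold, with the call lost in 9 of 18 alternatives. Among these, leaving out the no-delay library tagged atcacg gave an adjusted p of 0.0520, cgatgt 0.0865 and tgacca 0.0748, the 1-week library tagged atcacg 0.0900 and cgatgt 0.110, and TMM scaling 0.0996 (0.0244 to 0.124 over all alternatives).

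Hypoxia response genes outside glycolysis showed no common direction. Of 13 tested, 4 were higher, 3 lower and 6 not called, with a median log2 fold change of -0.0048 that lies below the 0.06 of all genes, of which 23.4% were higher and 13.4% lower. Among the 4 were Hif1a (log2 fold change 0.34, SE 0.07, limma adjusted p = 0.00324) and Epas1 (0.31, SE 0.08, limma adjusted p = 0.00994). These encode subunits of the hypoxia-inducible factors themselves. Adm, which encodes adrenomedullin, rose from 2.47 to 4.35 CPM (log2 fold change 0.64, SE 0.17, limma adjusted p = 0.00991; call lost with quantile normalization at adjusted p = 0.240, 0.00418 to 0.240 over all alternatives) and Ndrg1, a stress-induced gene also known in myelinating cells, from 31.0 to 44.2 CPM (log2 fold change 0.51, SE 0.15, limma adjusted p = 0.0210). Ndrg1 was no longer called with the no-delay library tagged tgacca left out (adjusted p = 0.05005), nor without the 1-week library tagged acagtg (0.0656) or atcacg (0.0567; 0.00164 to 0.0656 over all alternatives). Vegfa, the endothelial growth factor gene, fell from 106 to 82.7 CPM (log2 fold change -0.36, SE 0.10, limma adjusted p = 0.0131).

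**Figure D4:**
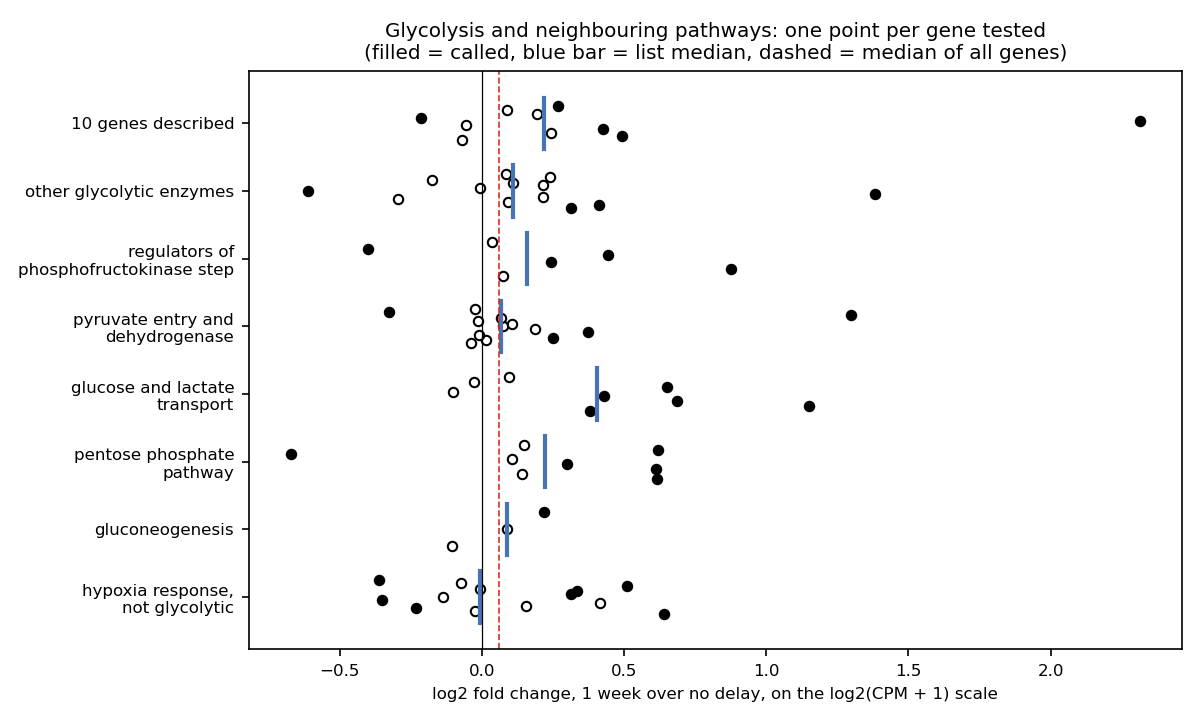
Log2 fold change at 1 week over no delay (log2(CPM + 1) scale) of each gene tested in the 10 genes and 7 lists of related genes (1 point per gene, filled if called by limma), with the list median (blue) and the median of all genes (dashed). Glucose and lactate transport has the highest median, 0.40, and the hypoxia list the lowest.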

How the data were processed

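The 8 CAGE libraries were read from 1 end over 75 nt, per the labels' protocols, and BWA 0.5.9 and the build mm9 are named in the submitters' processing notes. How tags were assigned to genes (strand, several matches) is not given in the sources used here. CPM as deposited by the authors (tags scaled to the same total in each library) stand in the table for 17644 symbols. Its columns name the group and a tag but no replicate number, so each was assigned to its group. The values are whole multiples of 1 read (99.9993% of nonzero values within 0.1 reads), and on the recovered reads edgeR called 2923 genes higher and 2567 lower, against 3439 and 1971 by limma.

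Groups were compared with limma 3.58.1 in R 4.3.3 on log2(CPM + 1), with the trend option of its variance model, over 14718 genes with at least 1 CPM in at least 4 libraries, 2-sided, with Benjamini-Hochberg adjustment over all genes tested and calls under 0.05. Fold changes are 1 week over no delay on that scale, and means, SDs, ratios and shares are from CPM. For 5 isoform pairs an exact 2-sided permutation test over 70 arrangements compared log2 ratios. The 10 genes and the lists were chosen with earlier results of these data known. Text names the 10 genes, detected glycolytic enzymes and, per related list, up to 3 called genes of largest change in either direction. Hif1a, Epas1 and Pgk1-rs7 are named beside these. Of the enzymes with a row, 1 is not reported here. Older symbols were matched through RefSeq synonyms. In simulated reads at the depths of this comparison (14380 genes tested, 200 changed), limma recovered 85.1% of 1.5-fold and 100% of 2-fold changes with 10 false calls. The simulation gave all genes the same dispersion and changed only genes of 5 CPM or more, in near-equal numbers up and down. In the data 5410 genes were called. The figures therefore do not cover genes as low as Hk2 without delay, or changes under 1.5-fold such as those of Aldoc, Gapdh, Pgk1 and Ldha. Alternatives were pseudocounts of 0.25 and 5, no filter or a CPM of 5, TMM, median-of-ratios and quantile scaling, edgeR 4.0.16 and DESeq2 1.42.0 on recovered reads, each library left out and, added after seeing the data, the library tag as a block.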

Additional observations from a re-analysis of the deposited data

Results flagged for a closer look

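A single library stood apart from the other 3 of its group, by the gap to its nearest neighbour over the whole range (Dixon's criterion at the 95% level), in 5 of 90 groups of values examined, where chance gives about 1 in 20. Eno1 was high in the no-delay library tagged acagtg (320.2 CPM, against 233 to 244 CPM). Pfkl was high in the no-delay library tagged acagtg (144 CPM, against 128 to 129 CPM) and in the 1-week library tagged acagtg (147 CPM, against 126 to 128 CPM). Slc16a1 was high in the 1-week library tagged atcacg (74.9 CPM, against 58.3 to 59.9 CPM), and Slc16a3 was low in the 1-week library tagged tgacca (1.79 CPM, against 3.03 to 3.14 CPM).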

How the results depend on the processing

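With each library left out, the genes called over the whole table numbered 4270 to 5575. Of the 10 genes, 3 to 6 were then called higher and 0 to 1 lower. Over all 18 alternatives the number called higher lay between 3 and 6 (6 with quantile normalization), and 0 were lower with no filter and with quantile normalization (Ldha at a limma adjusted p of 0.0565 and 0.130). Of the other glycolytic enzymes 2 to 6 were called higher and 1 lower when a library was left out, 1 higher and 3 lower with quantile normalization, and 2 lower with no filter. In the related lists 16 to 20 genes were called higher and 5 to 7 lower. The sum of the 10 genes differed by 176 CPM with median-of-ratios scaling and by 376 CPM as deposited, with 296 to 513 CPM when a library was left out. The difference in log2 ratio of Eno1 to Eno2 ranged from 0.081 to 0.23 with a library left out, and those of Hk2 to Hk1 (2.81 to 3.10), Aldoa to Aldoc (-0.64 to -0.47), Ldha to Ldhb (-0.47 to -0.33) and Pfkp to Pfkm (-0.17 to -0.074) had the same sign throughout. With 3 against 4 libraries these are values without a test. The log2 fold changes of genes near 0 changed sign: Pfkp and Eno2 without the no-delay library tagged tgacca, and Pfkl in 5 of 18 alternatives, quantile normalization (0.031) among them. With a library left out, Pfkp ranged from -0.0094 to 0.20, Eno2 from -0.014 to 0.16 and Pfkl from -0.057 to 0.037. The cause was not tested. No paired analysis was possible because the columns carry no replicate numbers to match with those of the labels. The same 4 tags occur in both groups. In the column names the tag is followed by CAC in every no-delay library and by GCT in every 1-week library. Whatever these letters stand for cannot be told apart from the comparison of the groups. No label ties a tag or these letters to a batch. Deviations of same-tag libraries from their group means correlated at only -0.034 to 0.18 across genes, with 2 of 4 no-delay libraries correlating best with their own tag. A fit with the tag as a block, chosen after seeing the data, called 5 of the 10 genes higher (Ldhb added, adjusted p = 0.0411) and 1 lower, and 5470 genes in all. Genes of few reads, such as Hk2 without delay, are limited by depth.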
